A study of Homo sapiens with 12 samples.

Results

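The respiratory chain was followed here through 72 genes of the mitochondrial electron transport complexes and the mitochondrial ATP synthase subunits, of 58735 genes in the count table. Members were taken by symbol: the NDUF genes of the A, B, C, S and V series, SDHA to SDHD, the UQCR genes of complex III, 10 cytochrome c oxidase subunits, and the protein-coding genes of mitochondrial DNA. The nuclear genome holds 59 of them. By gene name, 37 of these were counted as complex I (all NDUF genes, NDUFA4 included), 4 as complex II, 8 as complex III and 10 as complex IV. Mitochondrial DNA holds the other 13, of which 7 belong to complex I, 1 to complex III, 3 to complex IV and 2 to the ATP synthase. All 72 passed the filter on low counts and were among the 18415 genes tested.

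The respiratory chain passes electrons from NADH (complex I) and succinate (complex II) through complex III to complex IV, which reduces oxygen, and the pumped protons drive the ATP synthase. Complex II is encoded wholly in the nucleus, while complexes I, III and IV and the ATP synthase are assembled from subunits of both genomes. Nuclear members are transcribed singly by RNA polymerase II, whereas mitochondrial members are cut from long transcripts of the heavy and light strands of mitochondrial DNA, made by a dedicated polymerase.

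SW872, a cell line from a human liposarcoma, was made to express the fusion protein TAZ-CAMTA1 (TC) or YAP-TFE3 (YT) stably, and RNA was measured in each line with the control hairpin shNon-targeting (shNT) and with stable hairpins against YEATS2 or ZZZ3. Both targets are subunits of ATAC, a histone acetyltransferase complex that contains Ada2a. The 6 groups were therefore TC shNT, TC shYEATS2, TC shZZZ3, YT shNT, YT shYEATS2 and YT shZZZ3, with 2 libraries each. All 12 libraries carry a fusion and a hairpin, so none of these groups shows the parental cells. The knock-downs ask whether the ATAC complex is needed for the transcription that each fusion drives. For other libraries of this study, lines described as containing CAMTA1 were collected below confluence and the rest after confluence. Whether that wording covers the TAZ-CAMTA1 line or CAMTA1 alone is not stated. If it covers TAZ-CAMTA1 and held here, culture density and fusion cannot be told apart between TC and YT. The study calls the 2 libraries of a group biological duplicates, but neither it nor the labels say whether they came from separate cultures, so p-values measure only the spread between these libraries.

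Total counts ranged from 17451893 to 29294805 per library. YEATS2 stood at 33.9 to 45.4 CPM (counts scaled to library size, after TMM normalization) in the 4 libraries with its hairpin and at 112 to 138 CPM in the other 8. ZZZ3 stood at 12.6 and 29.6 CPM in YT shZZZ3 against 71.2 and 49.1 in YT shNT, and at 21.9 and 22.7 in TC shZZZ3 against 25.6 and 60.4 in TC shNT. ZZZ3 in TC shZZZ3 did not pass the test (log2 fold change -0.94, SE 0.42, edgeR adjusted p = 0.450), and TC shNT replicate 1 lay near the TC shZZZ3 libraries for this gene. ZZZ3 was also at 31.4 and 30.6 CPM in YT shYEATS2, below both YT shNT libraries, without passing the test (log2 fold change -0.95, edgeR adjusted p = 0.130). Mature adipocyte markers were near 0 (ADIPOQ up to 0.052 CPM and FABP4 up to 0.296 CPM), while LPL, an adipocyte lipase, reached 73.2 to 286 CPM. Some markers moved with the comparisons. The mesenchymal marker vimentin (VIM) stood at 709 and 695 CPM in YT shNT. It was called higher in YT shYEATS2 (log2 fold change 1.47) and YT shZZZ3 (1.37) and lower in YT shNT vs TC shNT (-0.93). COL1A2, also mesenchymal, was called lower in YT shNT vs TC shNT (-3.21), and FN1 fell in TC shZZZ3 (-1.29) and YT shZZZ3 (-1.63). Of the 4 mesenchymal markers, 2 rose and 0 fell in YT shYEATS2, and 2 rose and 1 fell in YT shZZZ3, and their summed level was 9064 to 11252 CPM in YT shNT, 7057 to 8830 in YT shYEATS2 and 4791 to 5033 in YT shZZZ3. CEBPA, an adipocyte regulator at 3.75 and 3.62 CPM in YT shNT, fell in YT shYEATS2 (-3.56) and YT shZZZ3 (-1.54). Of the 4 adipocyte markers tested, it alone was called in either knock-down, and 1 had a log2 fold change above 0 in YT shYEATS2. Summed adipocyte markers stood at 229 to 235 CPM in YT shNT, 160 to 168 in YT shYEATS2 and 133 to 171 in YT shZZZ3. Both endothelial markers, PECAM1 (3.08) and CDH5 (1.93), rose in YT shZZZ3. Without a ZZZ3 hairpin, TC shYEATS2 replicate 2 also held 17.1 CPM of PECAM1 and 91.4 of CDH5, against 4.9 and 27.6 in replicate 1. The part of these shifts in the results was not tested. The leukocyte markers PTPRC and CD68 did not exceed 0.158 CPM in any library, while the epithelial marker KRT18 ran from 215 to 739 CPM.

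For the nuclear members, sequence is shown for the genes called higher in a knock-down: the promoters of SDHA, NDUFA2 and COX7C, all on chromosome 5. Each run holds 300 bases, 250 before and 50 after the RefSeq start in GRCh38.p14, read 5′ to 3′ on the gene's own strand, and capitals mark matches to any of 5 motifs spelled out after the sequences, among them a half-site of nuclear respiratory factor 1 (NRF1).
SDHA (chr5:218070-218369, plus strand): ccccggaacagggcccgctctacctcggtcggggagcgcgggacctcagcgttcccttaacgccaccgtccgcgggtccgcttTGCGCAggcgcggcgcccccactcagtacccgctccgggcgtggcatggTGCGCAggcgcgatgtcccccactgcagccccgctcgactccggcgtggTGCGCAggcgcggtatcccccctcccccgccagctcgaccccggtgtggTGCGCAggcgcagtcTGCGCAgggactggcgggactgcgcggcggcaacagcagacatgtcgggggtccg
NDUFA2 (chr5:140647581-140647880, minus strand): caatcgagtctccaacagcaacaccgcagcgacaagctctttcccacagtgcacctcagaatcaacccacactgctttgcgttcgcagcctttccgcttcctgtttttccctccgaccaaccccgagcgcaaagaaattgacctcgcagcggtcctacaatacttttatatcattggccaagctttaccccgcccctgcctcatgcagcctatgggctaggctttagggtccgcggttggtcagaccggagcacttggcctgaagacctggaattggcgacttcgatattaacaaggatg
COX7C (chr5:86617691-86617990, plus strand): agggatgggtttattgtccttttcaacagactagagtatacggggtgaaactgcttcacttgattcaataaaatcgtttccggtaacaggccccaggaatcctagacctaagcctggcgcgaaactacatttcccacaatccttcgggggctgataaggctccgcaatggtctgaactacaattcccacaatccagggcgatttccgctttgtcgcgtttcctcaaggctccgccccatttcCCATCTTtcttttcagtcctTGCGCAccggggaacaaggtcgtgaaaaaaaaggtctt

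The NRF1 half-site TGCGCA, which reads the same on both strands, occurred 5 times in the SDHA window and once in that of COX7C. The COX7C window also held the YY1 letters AAGATGG on its other strand, and the NDUFA2 window held none of the 5 motifs searched, which says only that these letters are not in this window. A promoter was matched for 50 of the 59 nuclear members, 1 per gene. All motifs were searched on both strands. The NRF1 half-site was in 36.0% of these 50 promoters against 8.42% of 27305 promoters of the same length. The ETS core CCGGAAG, which GABPA binds, was in 30.0% against 10.7%, and the YY1 letters were in 22% against 6.06%. The TEAD letters CATTCC were in 8.0% against 14%, and the E-box CACGTG, which TFE3 family factors bind, in 8.0% against 7.43%. The NRF1 and YY1 letters are short forms, adopted after longer forms of both had been searched, and shorter letters match more windows of any kind.

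In mitochondrial DNA some genes overlap, so that a read there can belong to either gene. These stretches of hg38 show 9 bases on either side of the overlap, which is in capitals and belongs to the end of the first gene and the start of the second.
MT-ATP8 and MT-ATP6 (chrM:8518-8581): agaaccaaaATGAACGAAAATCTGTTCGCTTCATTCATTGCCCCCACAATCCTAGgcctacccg
MT-ND4L and MT-ND4 (chrM:10751-10775): cctactccaATGCTAAaactaatcg

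The overlap of MT-ATP8 with MT-ATP6 spans 46 bases, 22.2% of the bases of MT-ATP8, and that of MT-ND4L with MT-ND4 spans 7. How the authors' counting treated reads in these stretches is not given in the sources used here, so the values within each pair may not be independent. Nuclear copies of mitochondrial DNA also took counts: MTATP6P1 held 280 to 489 CPM, MTND2P28 61.6 to 119 CPM and MTCO1P12 17 to 48.9 CPM.

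The 13 mitochondrial members carried far more transcript than the 59 nuclear members in every library. In these bulk samples, fewer cells with a transcript and less of it per cell cannot be told apart. The mitochondrial members took 3.04% to 5.60% of all counts, and the nuclear members 0.439% to 0.549%. On the scale of CPM per kilobase of transcript, 12 of the 13 lay above every nuclear member by their mean over the 12 libraries. MT-CO2, a complex IV subunit that receives electrons from cytochrome c, had the highest level per kilobase in all 12 libraries, with a mean of 9823. MT-CO1, which holds the oxygen-reducing site, followed at a mean of 7769 and MT-CO3 at 6646, and this order held in 10 of 12 libraries, with ranges that overlapped (5421 to 11867 for MT-CO1, 4384 to 8489 for MT-CO3).

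The complex I genes MT-ND4, MT-ND3, MT-ND2, MT-ND5 and MT-ND1 had mean levels of 3813, 1562, 1256, 1116 and 881 CPM per kilobase. MT-ATP6 stood at 3572 and MT-CYB, the complex III subunit cytochrome b, at 3037. MT-ND6, which lies on the light strand, was the lowest mitochondrial member per kilobase in all 12 libraries, at 30.2 to 104 CPM before division by length. Its transcript is known to carry little or no poly(A) tail, and these libraries were made from poly(A) RNA.

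Among the nuclear members, the complex IV subunits COX7C and COX4I1 had the highest mean levels per kilobase. Other subunits of that complex stood far lower, such as COX5A at 75.4 and COX7B at 27.1. The order depends on the transcript length taken for each gene, for example 537 bases for UQCRH and 8459 for UQCRB. COX7C, a small structural subunit, had a mean of 379 CPM per kilobase and COX4I1, a regulatory subunit, 361, while the highest member of complex III was UQCRH, the hinge protein, at 318. Those 3 means differed by less than their ranges over the libraries (295 to 511, 272 to 481 and 261 to 369). NDUFV2, a complex I subunit that holds an iron-sulfur cluster, was listed at 0.247 to 0.739 CPM in the 12 libraries, far below its partner NDUFV1 at 143 to 259 CPM. NDUFV2 shares 28.4% of its exon bases with another gene on the same strand, and NDUFA7, the other member under 1 CPM in every library, shares 32.5%, so their values are uncertain.

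**Figure D1:**
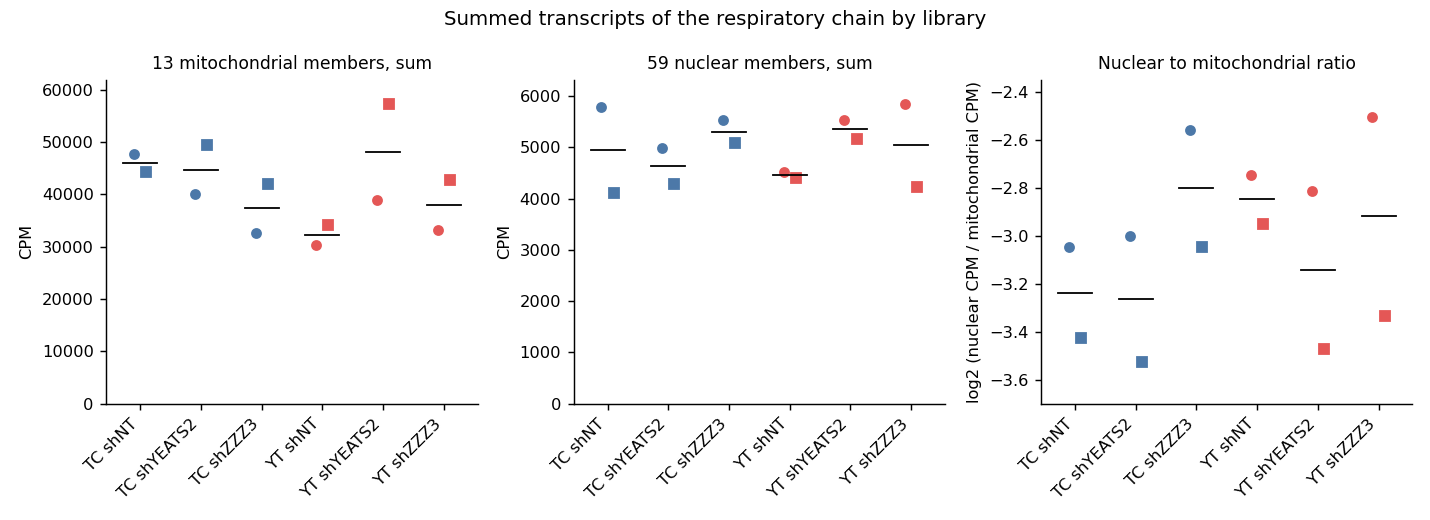
Summed CPM of the 13 mitochondrial members (left), of the 59 nuclear members (middle) and the log2 ratio of the nuclear to the mitochondrial sum (right) in the 6 groups. Circles are replicate 1, squares replicate 2, bars the mean of the 2 libraries, blue TC and red YT. The YT shNT libraries, at 30297 and 34116 CPM, lie below both TC shNT libraries in the left panel, and replicate 1 has the higher ratio in 6 of 6 groups.

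Per library, the nuclear sum varied less than the mitochondrial sum. Replicates 1 and 2 of TC shNT had nuclear sums of 5780 and 4116 CPM, those of TC shYEATS2 4994 and 4278, and those of TC shZZZ3 5527 and 5080. Replicates 1 and 2 of YT shNT had 4516 and 4408 CPM, those of YT shYEATS2 5542 and 5156, and those of YT shZZZ3 5851 and 4230. Only YT shYEATS2 lay wholly above its own control for this sum.

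For the mitochondrial sum, the TC shNT replicates stood at 47733 and 44311 CPM, the TC shYEATS2 replicates at 40037 and 49362, and the TC shZZZ3 replicates at 32558 and 41997. The YT shNT replicates stood at 30297 and 34116 CPM, the YT shYEATS2 replicates at 38927 and 57302, and the YT shZZZ3 replicates at 33227 and 42640. TC shZZZ3 lay below TC shNT and YT shYEATS2 above YT shNT with no overlap. YT shNT lay below TC shNT with no overlap.

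As the log2 ratio of the nuclear to the mitochondrial sum, TC shNT gave -3.05 and -3.43, TC shYEATS2 -3.0 and -3.53, and TC shZZZ3 -2.56 and -3.05. The ratios of YT shNT were -2.75 and -2.95, those of YT shYEATS2 -2.81 and -3.47, and those of YT shZZZ3 -2.51 and -3.33. Replicate 1 had the higher ratio in 6 of 6 groups, and replicate 1 also had the larger total count in 6 of 6 groups. The part of depth in the ratio was not tested. The pooled SD within groups was 0.39, as large as the difference between YT shNT and TC shNT (0.39, with YT shNT the higher), the only one of 5 comparisons whose pairs did not overlap. In the 4 knock-downs the ratio differed from its control by -0.29 to 0.43 and the pairs overlapped. In TC shZZZ3 that overlap was narrow, since the lower TC shZZZ3 ratio and the higher TC shNT ratio were both -3.05, and by replicate number the differences were 0.49 and 0.38, against 0.30 and 0.48 between the control lines.

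In TC cells neither knock-down moved a respiratory chain gene past the threshold. In TC shYEATS2 0 of 72 members passed (edgeR quasi-likelihood test, adjusted p under 0.05), 0 at an unadjusted p under 0.05 and 0 by DESeq2, where of all genes tested 0.0434%, 5.03% and 0.619% did so. In TC shZZZ3 it was again 0 of 72, 0 unadjusted and 0 by DESeq2, against 1.5%, 10.8% and 2.89% of all genes. The median log2 fold change in TC shYEATS2 was -0.10 for the nuclear and -0.10 for the mitochondrial members. In TC shZZZ3 the 2 medians had opposite signs, 0.08 for the nuclear members and -0.26 for the mitochondrial ones. The range over all members was -0.46 to 0.46 in TC shZZZ3 and -0.38 to 0.24 in TC shYEATS2.

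**Figure D2:**
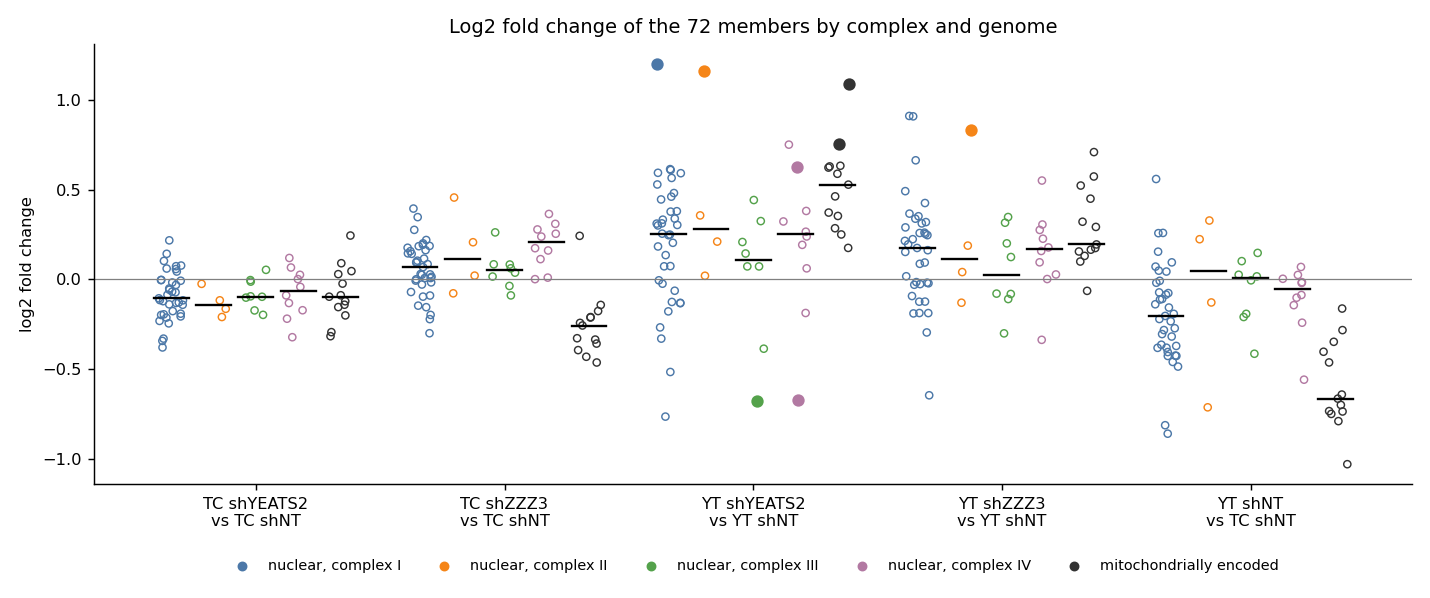
Log2 fold change (edgeR) of each of the 72 members in the 4 knock-downs and between the control lines. Nuclear members are split by gene name into complexes I to IV, beside the mitochondrially encoded members. Filled points passed an adjusted p under 0.05, open points did not, and black bars are medians. Filled points are found in YT shYEATS2 (7) and YT shZZZ3 (1) only, among these 5 comparisons.

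In YT cells, YEATS2 knock-down raised 5 respiratory chain genes and lowered 2. SDHA, NDUFA2, COX7C, MT-ND3 and MT-CO3 rose and COX6C and UQCRB fell, by 1.54-fold to 2.29-fold. These 7 of 72 members are 9.72%, against 20.7% of all genes tested that were called in this comparison, so the chain held a smaller share of calls than the table as a whole. That order held in 13 of 15 other fits, and not without the filter on low counts (16.7% against 14.8%) or with the comparison fitted alone (48.6% against 47.3%). Of all genes 9.61% rose and 11.1% fell. At an unadjusted p under 0.05 there were 18 members, where 35.0% of all genes passed, and DESeq2 called 13, where it called 23.9% of all genes. SDHA and MT-ND3 were called when each of the 4 libraries was left out in turn. NDUFA2 was called only without YT shYEATS2 replicate 2, and the other 4 were not called in any of these fits, in which 2 to 3 members passed.

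SDHA, the flavoprotein of succinate dehydrogenase that oxidizes succinate in complex II, lies on chromosome 5 at 218303 to 257082 (hg38, plus strand). It measured 166 and 164 CPM in YT shNT, and 376 and 358 CPM in YT shYEATS2. The knock-down pair lay above the control pair with no overlap (log2 fold change 1.16, SE 0.23, edgeR adjusted p = 0.00536). The other complex II genes, SDHB, SDHC and SDHD, had log2 fold changes of 0.21, 0.36 and 0.02 and did not pass the test. SDHA shares 21.7% of its exon bases with another gene on the same strand, and its pseudogenes SDHAP1 and SDHAP3 stood at 7.68 to 12.6 and 6.46 to 11.3 CPM.

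NDUFA2, an accessory subunit of the matrix arm of complex I, rose from 27.5 and 27.1 CPM to 66.8 and 58.9 CPM (log2 fold change 1.20, SE 0.28, edgeR adjusted p = 0.0111). It was the only one called of the 37 NDUF genes, whose log2 fold changes ran from -0.76 to 1.20 with a median of 0.25. NDUFV1, NDUFS1, NDUFS3, NDUFS7 and NDUFS8, which belong to the catalytic core of that arm, had log2 fold changes of 0.30, 0.07, 0.38, 0.20 and 0.33, and none of these 5 passed. NDUFV2, at under 1 CPM, had a log2 fold change of -0.76 and did not pass.

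COX7C rose from 198 and 195 CPM to 321 and 286 CPM (log2 fold change 0.63, SE 0.18, edgeR adjusted p = 0.0321). COX6C, another small subunit of complex IV, fell from 56.9 and 55.2 CPM to 33.2 and 37.1 CPM (log2 fold change -0.67, SE 0.18, edgeR adjusted p = 0.0225). Subunits of the same complex thus changed in opposite directions, with no overlap between the pairs for either gene. COX4I1 and COX5A, the first nuclear subunits to join the complex during assembly, had log2 fold changes of 0.19 and -0.19 and did not pass.

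UQCRB, which binds ubiquinone in complex III, fell from 88.1 and 68.6 CPM to 53.0 and 45 CPM (log2 fold change -0.68, SE 0.21, edgeR adjusted p = 0.0387). The core proteins UQCRC1 and UQCRC2 had log2 fold changes of 0.44 and -0.39, and the Rieske iron-sulfur protein UQCRFS1 0.07. None of those 3 passed the test. UQCRC2 lay below its control with no overlap, at 141 and 127 CPM against 176 and 174 CPM.

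**Figure D3:**
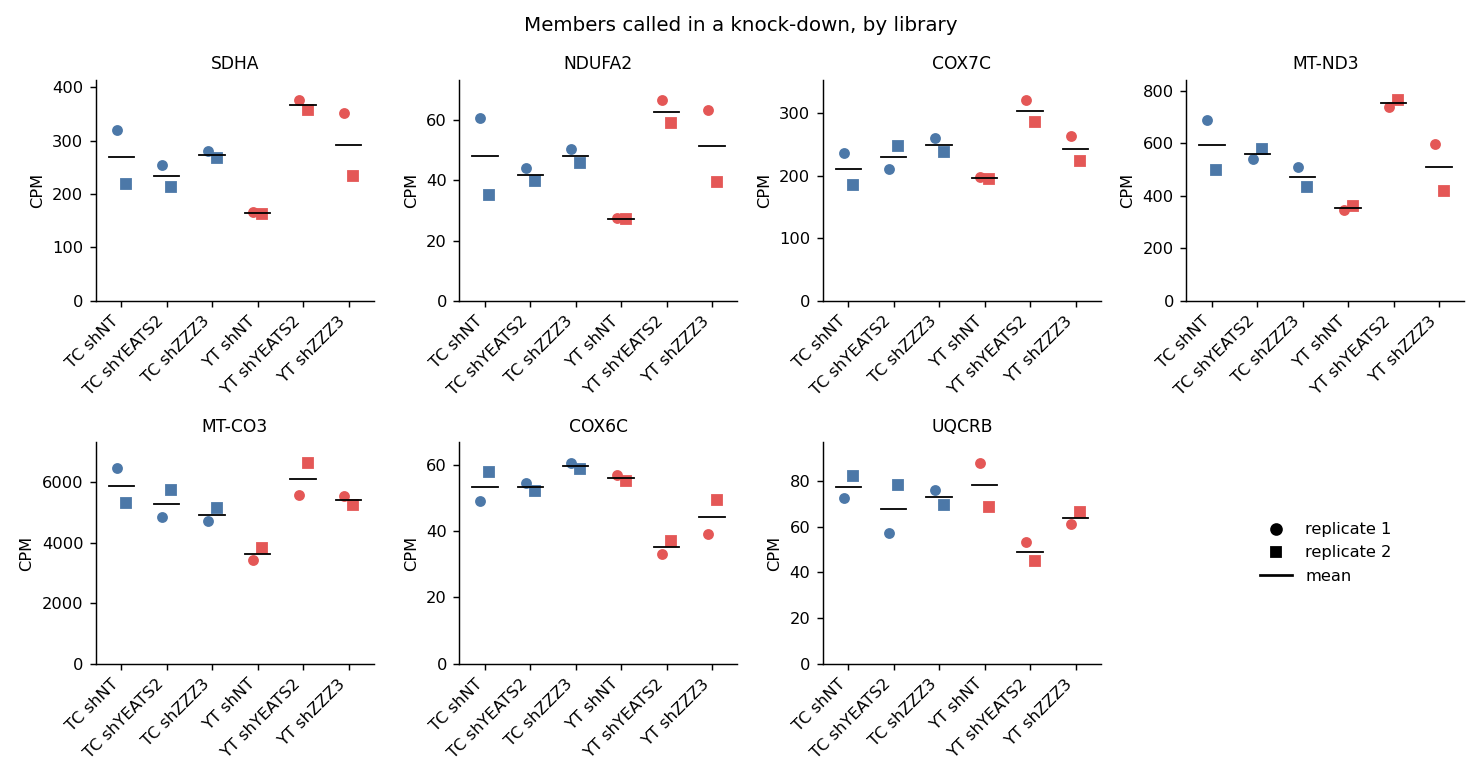
CPM of the 7 members called in YT shYEATS2 vs YT shNT, in each of the 12 libraries. Circles are replicate 1, squares replicate 2 and bars the mean of the 2. For SDHA, NDUFA2, MT-ND3 and MT-CO3 the YT shNT libraries are the 2 lowest of 12, and for COX6C and UQCRB the YT shYEATS2 libraries are the 2 lowest.

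All 13 mitochondrial members had a log2 fold change above 0 in YT shYEATS2, with a median of 0.53, against 0.25 for the nuclear members and -0.01 for all genes tested. The 2 knock-down libraries lay above both controls for 9 of the 13 and for 38 of the 59 nuclear members, where 36.4% of all genes did so. They lay below both controls for 12 nuclear and 0 mitochondrial members, where 37.8% of all genes did so. The mitochondrial members are cut from shared transcripts, so that 13 genes are not 13 independent observations.

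MT-ND3, a membrane subunit of complex I (chromosome M, 10059 to 10404), rose from 347 and 361 CPM to 740.5 and 766 CPM (log2 fold change 1.09, SE 0.22, edgeR adjusted p = 0.00525). MT-CO3, which precedes it on the heavy strand at 9207 to 9990, rose from 3437 and 3825 CPM to 5570 and 6655 CPM (log2 fold change 0.75, SE 0.21, edgeR adjusted p = 0.0241). The 2 knock-down libraries were close to each other for MT-ND3 and far apart for most of the others. MT-CO1 measured 11206 and 18299 CPM in YT shYEATS2 against 9305 and 10328 CPM in YT shNT (log2 fold change 0.59, SE 0.31, edgeR adjusted p = 0.202). MT-ND4 measured 5366 and 8287 CPM against 4116 and 4716 CPM (log2 fold change 0.63, edgeR adjusted p = 0.131). All 13 mitochondrial members were lower in replicate 1 than in replicate 2 of YT shYEATS2, by a median of 0.55 on the log2 scale. Without replicate 2 the mitochondrial median was 0.19, and without replicate 1 it was 0.79.

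**Figure D4:**
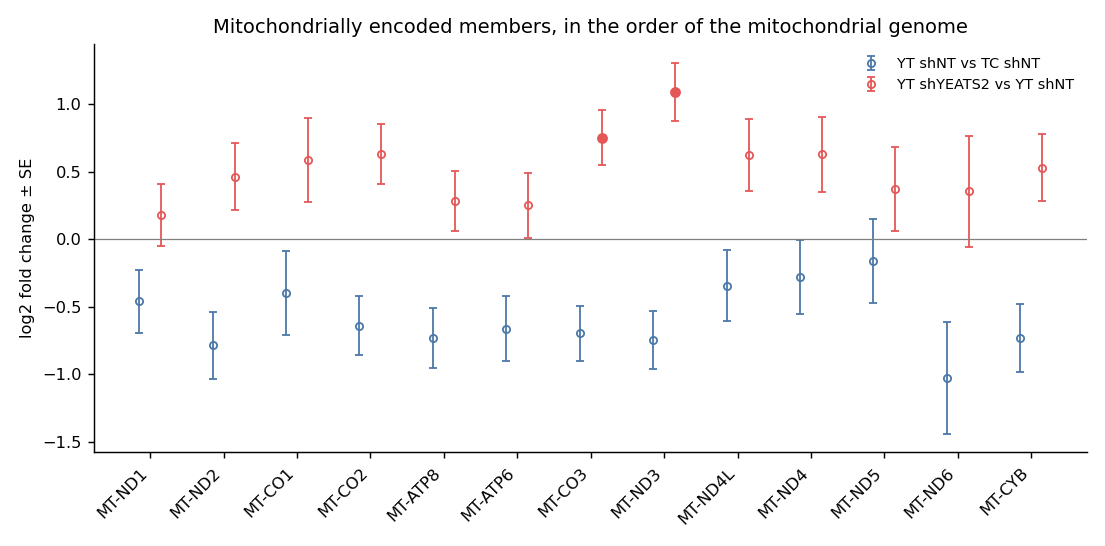
Log2 fold change (edgeR) of the 13 mitochondrially encoded members, with a standard error derived from the F statistic, in their order along mitochondrial DNA. Blue marks YT shNT vs TC shNT and red YT shYEATS2 vs YT shNT. Both comparisons use the YT shNT libraries. Filled points, MT-CO3 and MT-ND3, passed an adjusted p under 0.05, every red point is above 0 and every blue point is below 0.

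ZZZ3 knock-down in YT cells raised SDHA and called no other member. SDHA measured 351 and 234 CPM in YT shZZZ3 against 166 and 164 CPM in YT shNT (log2 fold change 0.83, SE 0.23, edgeR adjusted p = 0.0439). This 1 of 72 members is 1.39%, against 10.0% of all genes called. At an unadjusted p under 0.05 there were 7 members, against 24.5% of all genes, and DESeq2 called 4, against 12.8%. NDUFA2 measured 63.2 and 39.4 CPM against 27.5 and 27.1 CPM with no overlap, but did not pass (log2 fold change 0.91, SE 0.28, edgeR adjusted p = 0.0605). SDHA was called only without YT shZZZ3 replicate 2 when libraries were left out in turn, with an edgeR adjusted p of 0.0158 there and up to 0.208 in the other 3 fits.

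The medians in YT shZZZ3 were 0.16 for the nuclear and 0.19 for the mitochondrial members, and they rest on single libraries. Replicate 1 exceeded replicate 2 for 50 of 59 nuclear members. The median excess was 0.51 on the log2 scale, against 0.08 over all genes, both taken where the mean was at least 50 counts. Without replicate 1 the nuclear median was -0.08, and without replicate 2 it was 0.36. The same order was seen in TC shNT, where replicate 1 exceeded replicate 2 for 50 of 59 nuclear members by a median of 0.45. Across all genes tested, the deviations of these 2 groups' libraries from their group means had a correlation of 0.91.

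Among mitochondrial members, MT-CO3 measured 5536 and 5263 CPM in YT shZZZ3 against 3437 and 3825 CPM in YT shNT (log2 fold change 0.57, edgeR adjusted p = 0.107). MT-ND3 measured 598 and 419 CPM against 347 and 361 CPM (log2 fold change 0.52, edgeR adjusted p = 0.163). The knock-down libraries lay above both controls for 4 of 13 mitochondrial members and for 12 of 59 nuclear members, where 25.6% of all genes did so.

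The response to the YEATS2 hairpin differed between the lines for SDHA, NDUFA2 and MT-ND3. This was tested as the YT change minus the TC change, for which 3 of 72 members passed against 9.36% of all genes. At an unadjusted p under 0.05 there were 13 members, against 24.1% of all genes, and DESeq2 called 6, against 12.2%. SDHA differed by 1.37 (SE 0.33, edgeR adjusted p = 0.0230), NDUFA2 by 1.40 (SE 0.39, edgeR adjusted p = 0.0447) and MT-ND3 by 1.18 (SE 0.31, edgeR adjusted p = 0.0337). In TC cells SDHA measured 254 and 212 CPM with the hairpin and 320.5 and 218 CPM without, NDUFA2 44.1 and 39.7 CPM against 60.8 and 35.2 CPM, and MT-ND3 542 and 578 CPM against 689 and 500 CPM. The pairs overlapped in TC for all 3 genes. For the ZZZ3 hairpin 0 of 72 members passed this test, 4 did so at an unadjusted p under 0.05 and DESeq2 called 1, against 4.31%, 17.1% and 6.92% of all genes.

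These interactions rest on few libraries. SDHA passed in 3 of 8 fits that each left out 1 library, MT-ND3 in 2 of 8 and NDUFA2 in 1 of 8. Without TC shNT replicate 2 all 3 passed, and 10 members in all; without any of the 4 YT libraries in turn, 0 members passed.

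Between the control lines, mitochondrial members had lower values in YT shNT, but none of them passed the edgeR test. All 13 had a log2 fold change below 0, with a median of -0.66, against -0.13 for the nuclear members and -0.01 for all genes. Both YT shNT libraries lay below both TC shNT libraries for 12 of the 13, where 25.3% of all genes did so, and for 12 of the 59 nuclear members. MT-ND3 had the lowest edgeR adjusted p of all members (0.0536), at 347 and 361 CPM against 689 and 500 CPM. DESeq2 called 8 members, where it called 12.2% of all genes, all lower in YT shNT: 6 mitochondrial members, SDHA and NDUFA2. In edgeR, 0 of 72 members were called and 13 had an unadjusted p under 0.05, against 9.23% and 23.9% of all genes. Without TC shNT replicate 2, edgeR called 9.

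MT-ND6 had the most negative log2 fold change (-1.03, SE 0.42, edgeR adjusted p = 0.156), at 30.2 and 36.7 CPM against 59.6 and 77.2 CPM. MT-ND2 measured 829 and 1004 CPM against 1591 and 1576 CPM (log2 fold change -0.79, edgeR adjusted p = 0.0722). MT-CYB measured 2381 and 2761 CPM against 4371 and 4174 CPM (log2 fold change -0.73, edgeR adjusted p = 0.0955). The exception to the separation was MT-ND5, at 1694 and 2014 CPM against 1995 and 2153 CPM. Of the mitochondrial ribosomal RNAs, which are not members, MT-RNR1 ran at 708 to 720 CPM in YT shNT and 792 to 1098 CPM in TC shNT. It did not pass the test (log2 fold change -0.40, edgeR adjusted p = 0.263). MT-RNR2 overlapped, at 5464 and 5102 CPM in YT shNT against 6696 and 4953 CPM in TC shNT. Its log2 fold change was -0.14 (edgeR adjusted p = 0.768).

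For several members the YT shNT libraries were the 2 lowest of all 12. This held for 4 of 13 mitochondrial and 5 of 59 nuclear members, and for 9.95% of all genes tested. SDHA and NDUFA2 were among them: NDUFA2 measured 27.5 and 27.1 CPM in YT shNT and 35.2 to 66.8 CPM elsewhere. The changes in the YT knock-downs and between the control lines share these 2 libraries, so they are not independent of each other.

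The nuclear members called in YT shYEATS2 lay on 2 chromosomes, and their values were set beside those of the genes around them. The called genes SDHA, NDUFA2 and COX7C lie on chromosome 5, which holds 6 members, and the called genes COX6C and UQCRB on chromosome 8, which holds 3. Of the 5 nuclear members called, none lies elsewhere. For each member, the neighbour median is the median log2 fold change of the other tested genes that start within 5 Mb. Only neighbours with a mean of at least 50 counts were used, and only where there were more than 9. COX6C had a log2 fold change of -0.67 and a neighbour median of -0.67, and UQCRB -0.68 and -0.75. NDUFB9, the other chromosome 8 member, had -0.18 and -0.66.

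On chromosome 5 the 3 called members exceeded their neighbours. SDHA had a log2 fold change of 1.16 and a neighbour median of 0.49, NDUFA2 1.20 and 0.55, and COX7C 0.63 and -0.35. The other chromosome 5 members, none called, were NDUFS4 at 0.14 and -0.29, NDUFS6 at 0.34 and 0.49, and UQCRQ at 0.07 and 0.08. Over the 59 nuclear members, the correlation (Pearson's r) of a member's log2 fold change with its neighbour median was 0.59, and members that lie close together share neighbours. The same r was 0.47 in YT shZZZ3, 0.43 between the control lines, 0.27 in TC shZZZ3 and 0.23 in TC shYEATS2, so a relation to neighbours was not seen in YT shYEATS2 alone.

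**Figure D5:**
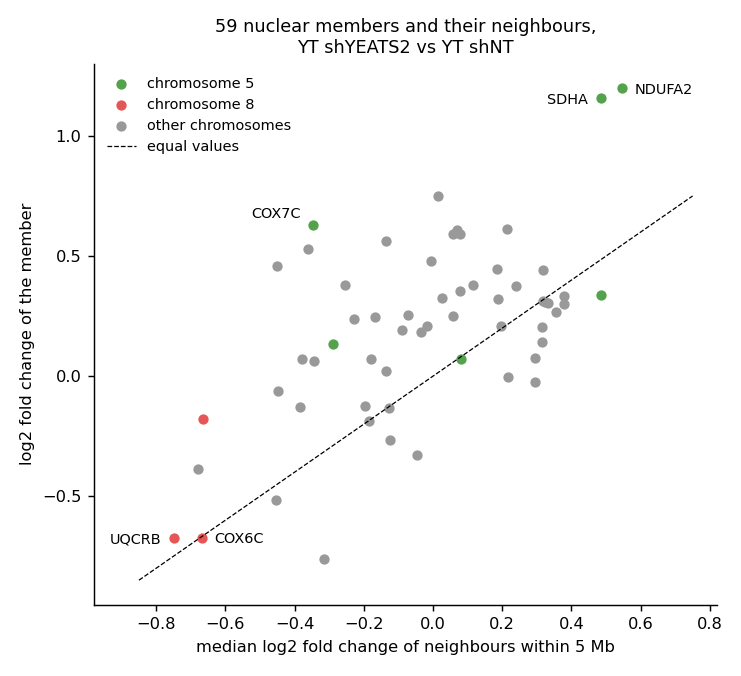
Log2 fold change (edgeR) of each of the 59 nuclear members in YT shYEATS2 vs YT shNT against the median log2 fold change of its neighbours. Neighbours are other tested genes that start within 5 Mb and have a mean of at least 50 counts. Green marks chromosome 5, red chromosome 8, grey the others, and the dashed line equal values. COX6C and UQCRB lie close to the line and SDHA, NDUFA2 and COX7C above it.

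When the neighbour medians of each library were removed before the fit, 8 of 72 members passed, against 22.9% of all genes. Mitochondrial members had no neighbour median to remove. The members that passed were not the same as before: of the nuclear ones called earlier, SDHA alone stayed. Those newly called included NDUFB5, NDUFA1, COX6B1 and MT-CO2 (edgeR adjusted p of 0.0291, 0.0337, 0.0401 and 0.0396). COX6C then had a log2 fold change of -0.04 and UQCRB one of 0.04, with edgeR adjusted p of 0.875 and 0.896. SDHA kept a log2 fold change of 0.66 (edgeR adjusted p = 0.0241), NDUFA2 one of 0.73 (edgeR adjusted p = 0.0628) and COX7C one of 0.86 (edgeR adjusted p = 0.128). Whether the number of gene copies differed between the lines was not tested.

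Genes that serve the chain without belonging to these 72 were followed in lists chosen for their roles, to be read against the 20.7% of all genes called in YT shYEATS2 (9.61% higher, 11.1% lower) and the 10.0% called in YT shZZZ3. Of the 24 genes of the mitochondrial DNA and RNA machinery, 5 fell and 0 rose in YT shYEATS2, with a list median of -0.37. These 5 are 20.8% of the list, near the 20.7% of all genes called in either direction and above the 11.1% called lower. LRPPRC, which stabilizes mitochondrial messenger RNA, had the largest change among them (log2 fold change -1.07, SE 0.28, edgeR adjusted p = 0.0194), at 213 and 169 CPM in YT shNT and 98.8 and 83.2 CPM in YT shYEATS2. MTERF3, a repressor of mitochondrial transcription, fell by 1.02 on the log2 scale, TFB2M, a mitochondrial transcription factor, by 0.95, SUPV3L1, an RNA helicase of mitochondrial RNA decay, by 0.66, and SSBP1, which binds single-stranded mitochondrial DNA, by 0.53. In YT shZZZ3 0 of the 24 passed. Between the control lines SUPV3L1 was called higher in YT shNT (log2 fold change 0.92, edgeR adjusted p = 0.0138).

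Of 43 complex assembly factors tested, 2 rose and 3 fell in YT shYEATS2, 11.6% of the list. COX19, a copper-handling factor of complex IV assembly, fell in both YT knock-downs, from 26.7 and 28.9 CPM in YT shNT to 11.5 and 10.9 CPM in YT shYEATS2 (log2 fold change -1.31, SE 0.19, edgeR adjusted p = 0.000761) and to 12 and 12.4 CPM in YT shZZZ3 (log2 fold change -1.18, SE 0.19, edgeR adjusted p = 0.00301). COX19 was the only called assembly factor of YT shZZZ3. Between the control lines it was called higher in YT shNT (log2 fold change 0.97, edgeR adjusted p = 0.00847). TC shNT stood at 14.3 and 14 CPM for it. COX16, another complex IV assembly factor, rose by 1.12 on the log2 scale in YT shYEATS2, from 0.528 and 0.575 CPM to 1.46 and 1.13 CPM.

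Among 8 nuclear regulators of mitochondrial genes, PPARGC1B, a coactivator of respiratory genes, fell in YT shYEATS2 from 17.3 and 17.9 CPM to 4.24 and 3.56 CPM (log2 fold change -2.14, SE 0.25, edgeR adjusted p = 0.000174). Its relative PPARGC1A had its higher level in YT shNT between the control lines, at 15.5 and 12.7 CPM against 0.381 and 0.621 CPM in TC shNT (log2 fold change 4.61, SE 0.38, edgeR adjusted p = 5.37e-05). No other gene of that list was called in these comparisons.

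Of the 15 nuclear subunits of the ATP synthase, 1 (6.67%) was called, ATP5ME, which rose in YT shYEATS2 (log2 fold change 0.73, SE 0.19, edgeR adjusted p = 0.0202), and 0 passed in YT shZZZ3. Of the 16 genes of the TCA cycle and pyruvate dehydrogenase, 3 (18.8%) rose in YT shYEATS2, with the largest change in OGDH, the dehydrogenase of 2-oxoglutarate (log2 fold change 1.04, edgeR adjusted p = 0.0144), and 0 fell. Of 17 glycolysis genes, 3 (17.6%) rose in YT shYEATS2, of which ENO2, an enolase, had the largest change (1.43 on the log2 scale, edgeR adjusted p = 0.0011). In YT shZZZ3 HK2, a hexokinase, fell by 1.24 on the log2 scale (edgeR adjusted p = 0.00336), to 29.1 and 35.2 CPM. Between the control lines HK2 was called higher in YT shNT (log2 fold change 1.17, edgeR adjusted p = 0.00461). It stood at 71 and 80.9 CPM in YT shNT and at 31.2 and 36.3 CPM in TC shNT. Of 78 mitochondrial ribosomal protein genes 4 (5.13%) were called, of which 2 rose, with the larger change in MRPL9 (0.73), and 2 fell, with the larger change in MRPL13 (-0.67), in YT shYEATS2, and 0 passed in YT shZZZ3. Among 7 further subunits and isoforms tested, NDUFA4L2, a relative of NDUFA4, fell by 1.76 on the log2 scale in YT shZZZ3 (edgeR adjusted p = 0.0281).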

How the data were processed

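The deposited files hold raw counts per gene for 12 libraries, in 1 combined table and 12 single tables whose counts are identical. Per the labels and the authors' methods, poly(A) RNA was made into stranded libraries, demultiplexed with bcl2fastq and aligned to hg38. For the study's RNA sequencing in general, the methods also describe Salmon pseudo-alignment summarised to genes with tximport. Whether the deposited counts came from this route or from the alignments, and how strand and multiply mapped reads were treated, is not given in the sources used here.

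Library sums used full totals (17451893 to 29294805 counts), scaled by TMM. The 18415 genes whose mean reached 5 counts were fitted with edgeR 4.0.16 (R 4.3.3), using the robust quasi-likelihood test over all 6 groups, with a prior count of 2 and Benjamini-Hochberg adjustment over all genes tested, and a gene was called at an adjusted p under 0.05. CPM values are TMM-scaled, and the summed ratio was described without a test. Standard errors were derived from the test, as the absolute log2 fold change over the square root of its F statistic. Depth limits precision most for NDUFV2 and NDUFA7, and intervals and standard errors cover these libraries only. DESeq2 1.42.0, other scalings, filters, a replicate block, GC and length trends, and leaving out each library were alternatives. Removal of neighbour medians was added after seeing the data. Fits were tested on simulated data. Gene models came from GENCODE 44, in which 99.1% of the 58735 IDs were found.

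Same-numbered libraries were checked for pairing: of 15 correlations of their deviations from group means, 7 exceeded 0.1 and the range was -0.469 to 0.913, so the numbers were not taken to pair libraries. The members and lists were chosen with earlier results of these data known. Named genes were all mitochondrial members, the catalytic nuclear subunits with COX4I1 and COX5A, and per comparison the called nuclear members with the largest change and no overlap between groups. One gene that this rule names is not reported here. For the related lists, counts and the called gene of largest change in either direction were given. Other names in the text were chosen after their values were seen.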

Additional observations from a re-analysis of the deposited data

Results flagged for a closer look

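The response to the YEATS2 hairpin differed between YT and TC cells for 3 members by the interaction test in edgeR. The YT change exceeded the TC change by 1.37 on the log2 scale for SDHA (SE 0.33, adjusted p = 0.0230), by 1.40 for NDUFA2 (SE 0.39, adjusted p = 0.0447) and by 1.18 for MT-ND3 (SE 0.31, adjusted p = 0.0337). For all 3 genes the YT shNT libraries were the lowest pair among the 6 groups. Groups of 2 libraries were not searched for a library far from the others.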

How the results depend on the processing

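In YT shYEATS2, where 7 members were called, there were 13 with DESeq2, 11 with library totals, 12 without the filter on low counts, 35 with that comparison fitted alone, 15 with the replicate block, 19 with GC and length trends removed and 24 with both. In YT shZZZ3, with 1 called, there were 4 with DESeq2, 2 with library totals, 2 with TMM without mitochondrial genes, 4 without the filter, 0 with the comparison fitted alone, 2 with the replicate block, 5 with the trends removed, 8 with block and trends, and 0 with neighbour medians removed. The YEATS2 interaction, with 3 called, gave 6 with DESeq2, 6 without the filter, 6 with the replicate block, 10 with the trends removed and 16 with both. The ZZZ3 interaction, with 0 called, gave 1 with DESeq2, 3 without the filter, 3 with the trends removed and 7 with block and trends. YT shNT against TC shNT, with 0 called, gave 8 with DESeq2, 1 with RLE scaling, 3 with library totals, 2 with TMM without mitochondrial genes, 10 without the filter, 2 at a mean of at least 50 counts, 8 with the replicate block, 8 with the trends removed, 16 with block and trends, and 4 with neighbour medians removed. TC shZZZ3, with 0 called, gave 2 with block and trends. TC shYEATS2 gave 0 in every fit run. The cause of these shifts was not tested.

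Leaving out 1 library at a time gave 2 to 3 called members in YT shYEATS2, 0 to 2 in YT shZZZ3, 0 to 10 for the YEATS2 interaction, 0 to 3 for the ZZZ3 interaction, 0 to 9 between the control lines and 0 in both TC knock-downs. A group left with 1 library was assumed to vary like the others. The ratio difference in YT shZZZ3 ran from -0.48 to 0.34 in these fits, and in the other 4 comparisons it moved by less than the pooled SD. Even so, the ratio difference also changed sign in TC shYEATS2 (-0.29 to 0.23) and in YT shYEATS2 (-0.63 to 0.04). Of the members named in YT shYEATS2, UQCRB changed direction with neighbour medians removed (0.037), as did NDUFB9 (0.64), UQCRC2 (0.32), NDUFS6 (-0.15), NDUFS7 (-0.10), NDUFV1 (-0.065), NDUFS8 (-0.033) and UQCRQ (-0.0094). With GC and length trends removed, without and with the replicate block, NDUFS7 (-0.16 and -0.15), COX4I1 (-0.0052 and -0.0056) and NDUFV1 (-0.000354 and -0.000319) did so, and with library totals SDHD (-0.029). SDHD (-0.097 to 0.14), NDUFS1 (-0.066 to 0.21) and UQCRFS1 (-0.0029 to 0.16) did so without YT shYEATS2 replicate 1, their ranges being over each library left out. Of the genes that changed direction, UQCRB alone was called with all libraries. The mitochondrial median in YT shZZZ3 changed sign when single libraries were left out (-0.09 to 0.44). The medians of the nuclear members changed sign when single libraries were left out in TC shYEATS2 (-0.27 to 0.15), TC shZZZ3 (-0.09 to 0.33), YT shZZZ3 (-0.08 to 0.36) and YT shNT against TC shNT (-0.34 to 0.11), and for both interactions (-0.02 to 0.56 for YEATS2, -0.18 to 0.28 for ZZZ3), but not in YT shYEATS2 (0.21 to 0.28).

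Replicate numbers were not taken to pair the libraries, although correlations between same-numbered libraries reached 0.913. The block absorbs differences between numbers, and whether these have a shared source is not known. With 2 libraries per group there are 6 residual degrees of freedom, and members near the threshold passed or failed with single libraries. NDUFV2 and NDUFA7 are limited by depth.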
